A study of Arabidopsis thaliana with 12 samples.

Results

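The chloroplast genome of Arabidopsis thaliana was followed through all 132 table rows whose locus ID begins with ATCG, out of 33618 rows in all. The rows were measured in whole rosettes of 4 genotypes with 3 libraries each. They were vtc2 (allele vtc2-4), vtc4 (allele vtc4-4), the line labelled vtc2/OE-VTC2 L15, here OE, which carries the vtc2 background, and wild type (WT). The VTC2 product is GDP-L-galactose phosphorylase and the VTC4 product is L-galactose 1-phosphate phosphatase, both in the pathway that makes ascorbate in plants, and the study's title links ascorbate to auxin biosynthesis. All plants were untreated and 4 weeks old, grew at 22 °C in short days (light for 8 h, darkness for 16 h) under 300 μmol photons m-2 s-1, with harvest 30 min into the light period. Rosettes were pooled by 8 for a library, and OE is a single line whose promoter the labels do not give.

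Chloroplasts keep a small genome of bacterial origin that encodes core subunits of both photosystems, the cytochrome b6f complex, ATP synthase and the NDH complex, the rubisco large subunit, and part of their own ribosomes and RNA polymerase. Its genes are transcribed in long shared units by a bacterial-type polymerase with plastid-encoded core subunits and by a nuclear-encoded polymerase. Stable chloroplast mRNAs mostly lack the long poly(A) tails of nuclear mRNAs, and tails added to plastid RNA lead to its decay. The libraries were made with a stranded mRNA kit, which enriches polyadenylated RNA, so the values describe the chloroplast RNA that this preparation kept and not total chloroplast RNA.

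The deposited unit was FPKM, the fragment number scaled for transcript length and library size. The table gives IDs and no gene names. A name was used for 59 rows, where a gene's RefSeq length (TAIR10.1) turned the FPKM values into whole numbers of fragments. In these rows 98.4% of the 668 values above 0 lay within 0.1 of a whole fragment. The rows were chosen by this trait, so the share does not test the names. The length expected from the locus name failed for ATCG00040, above 0 in 12 libraries with 0% of values whole. It also failed for ATCG00360, above 0 in 9 libraries with 22.2% whole. For 39 of the rows no other chloroplast gene length did so, but 7 of those share their exact length with another gene, among them psbA with psbD and rpl22 with petD. Which of several fitting genes a row belongs to was taken from common knowledge of the Arabidopsis locus names and could not be checked in the files. All other rows are given by ID.

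The check of the disrupted genes came first. VTC2 stood at 16.4, 20.3 and 14.8 FPKM in vtc2, 719, 781 and 850 FPKM in vtc4, 411, 366 and 372 FPKM in OE, and 745, 810 and 900 FPKM in WT. VTC4 averaged 29.0 ± 1.48 FPKM in vtc2, 0.373 ± 0.0837 in vtc4, 23.3 ± 3.02 in OE and 28.3 ± 2.67 in WT (SD, n = 3 each). Libraries labelled OE thus had more VTC2 transcript than vtc2 and less than WT, which goes against the word overexpression where WT is the standard. The rosette label was checked on leaf, guard cell, root and flower markers. Of 4 leaf mesophyll markers, 3 averaged 2639 to 3225 FPKM and RBCS1A was listed at 0 in every library, so a value of 0 in this table need not mean that a transcript was absent. The 5 flower markers averaged 0.0031 to 0.352 FPKM.

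Of the 132 rows, 78 were above 0 in at least 1 library, 48 were above 0 in all 12, and 54 were listed at 0 in all 12. The number above 0 in a library was 61.7 ± 5.51 in vtc2, 63.3 ± 1.53 in vtc4, 62.7 ± 2.08 in OE and 62.3 ± 2.89 in WT (SD, n = 3 each). RefSeq lists 129 chloroplast genes, and 54 of them, including all 37 tRNA genes, are shorter than 160 bases, about the mean fragment length of the libraries. These need not be the 54 rows listed at 0, which were not matched by length. ATCG01250, an NDH complex gene by common knowledge of its locus, was listed at 0. The shortest NDH gene in RefSeq, ndhE, has 306 bases. Where a transcript is shorter than about 160 bases, a few fragments give a very high FPKM. ATCG00090, a tRNA gene by common knowledge of its locus, was at 300.5 FPKM in vtc2 replicate 1 and at 394.6 FPKM in OE replicate 3, and at 0 in 7 libraries. Such rows carry little information on a level, so the summed level is given over the 59 named rows. These rows took 2729 to 11196 fragments per library, which was 0.0115% to 0.0452% of the fragments behind the scaling.

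The summed level of the named rows was 172, 147 and 514 FPKM in vtc2, 264, 318 and 211 FPKM in vtc4, 226, 229 and 260 FPKM in OE, and 226, 211 and 294 FPKM in WT. The ranges of the 4 genotypes overlapped, and vtc2 held both the lowest and the highest library. Over all 132 rows, the mean sum was 0.867 times that of WT in vtc2, 0.601 times in vtc4 and 0.932 times in OE. But with the rows left out that are tRNA or rRNA genes by common knowledge of their loci, the ratio for vtc4 was 1.09. No test was made of these sums.

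A total of 42 rows reached an FPKM of 1 in at least 3 libraries and were tested, 37 of them named. Among the named rows, atpE and atpB, which encode the epsilon and beta subunits of the ATP synthase, had the highest levels in most libraries. Their means over the 12 libraries were 41.0 and 31.7 FPKM, ahead of psbA with 29.8, rbcL with 13.1, clpP with 12.1 and rpl16 with 11.0 FPKM. The psbA mean rests largely on 1 library, and the highest single value among the others of this set was 58.6 FPKM, for rbcL in the same library. Across the 59 named rows, the log2 mean level had a Pearson correlation of -0.40 and a Spearman correlation of -0.39 with the length of the longest run of A in the transcript. With percent A the correlations were weaker, at -0.23 (Pearson) and -0.21 (Spearman). These are descriptions across genes that share libraries, genome and base composition. Gene length, which bears on the longest run, was not taken into account, and rpl2, rrn16S and rrn23S entered with both copies.

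**Figure D1:**
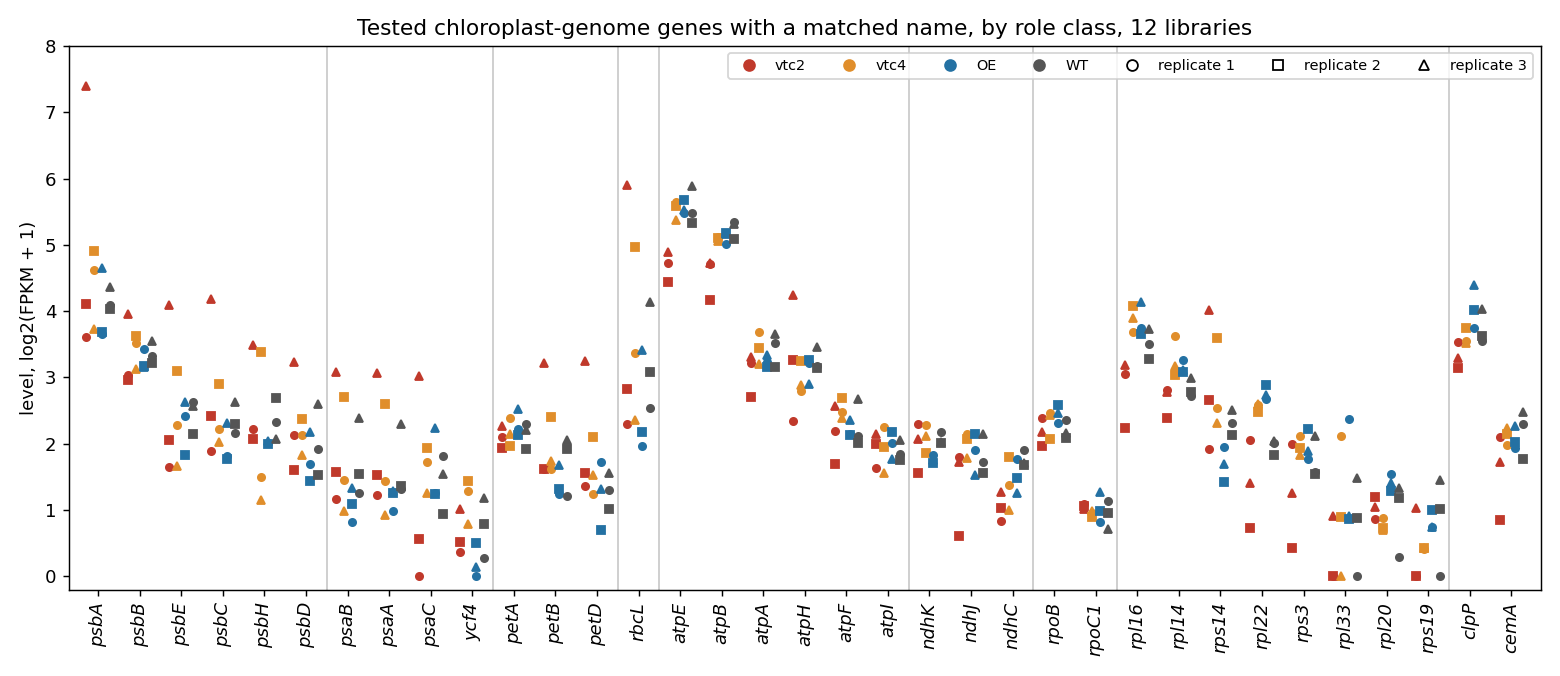
Level on the log2(FPKM + 1) scale (y axis) of 35 named and tested chloroplast-genome genes (x axis, grouped by role), with 1 point per library, colours for genotypes and shapes for replicates. The vtc2 replicate 3 point stands above the rest for psbA (167 FPKM) and rbcL (58.6 FPKM), while atpE and atpB are lower in all 3 vtc2 libraries.

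Photosystem II was represented by 6 tested genes. psbA, which encodes the D1 reaction centre protein, was at 11.3, 16.3 and 167 FPKM in vtc2, 23.5, 29.1 and 12.3 FPKM in vtc4, 11.6, 11.9 and 24.1 FPKM in OE, and 16.0, 15.4 and 19.6 FPKM in WT. One vtc2 library stood far above the other 11, and apart from it all genotypes overlapped. The limma log2 fold change of psbA was 0.88 (SE 0.74) for vtc2 against WT with an adjusted p of 0.554, and without vtc2 replicate 3 it was -0.30. The remaining 5 were psbB and psbC, which encode the inner antenna proteins CP47 and CP43, psbD, which encodes D2, psbE, which encodes a cytochrome b559 subunit, and psbH. Their means were 9.31 FPKM for psbB, 5.04 for psbE, 4.91 for psbC, 4.29 for psbH and 3.42 for psbD, and none was called in any comparison.

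Photosystem I, the cytochrome b6f complex and the rubisco large subunit had 4, 3 and 1 tested genes, and none was called in any comparison. rbcL, which encodes the rubisco large subunit, was at 3.92, 6.07 and 58.6 FPKM in vtc2, 9.28, 30.4 and 4.11 FPKM in vtc4, 2.92, 3.52 and 9.63 FPKM in OE, and 4.78, 7.44 and 16.7 FPKM in WT. Every genotype held 1 library well above its other 2, and all genotypes overlapped. The highest photosystem I gene was psaB, one of the reaction centre proteins, with 1.24, 1.97 and 7.48 FPKM in vtc2, 1.75, 5.53 and 0.984 FPKM in vtc4, 0.771, 1.13 and 1.51 FPKM in OE, and 1.38, 1.92 and 4.23 FPKM in WT. In the cytochrome b6f complex it was petA, which encodes cytochrome f, with 3.28, 2.82 and 3.84 FPKM in vtc2, 4.21, 2.92 and 3.42 FPKM in vtc4, 3.66, 3.39 and 4.78 FPKM in OE, and 3.90, 2.77 and 3.63 FPKM in WT. petA thus varied far less between libraries than psaB, and its genotypes overlapped. petD, which encodes subunit IV of that complex, had a log2 fold change of 0.77 for vtc2 against WT with an adjusted p of 0.346 (limma), the second largest rise in that comparison after psbA.

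**Figure D2:**
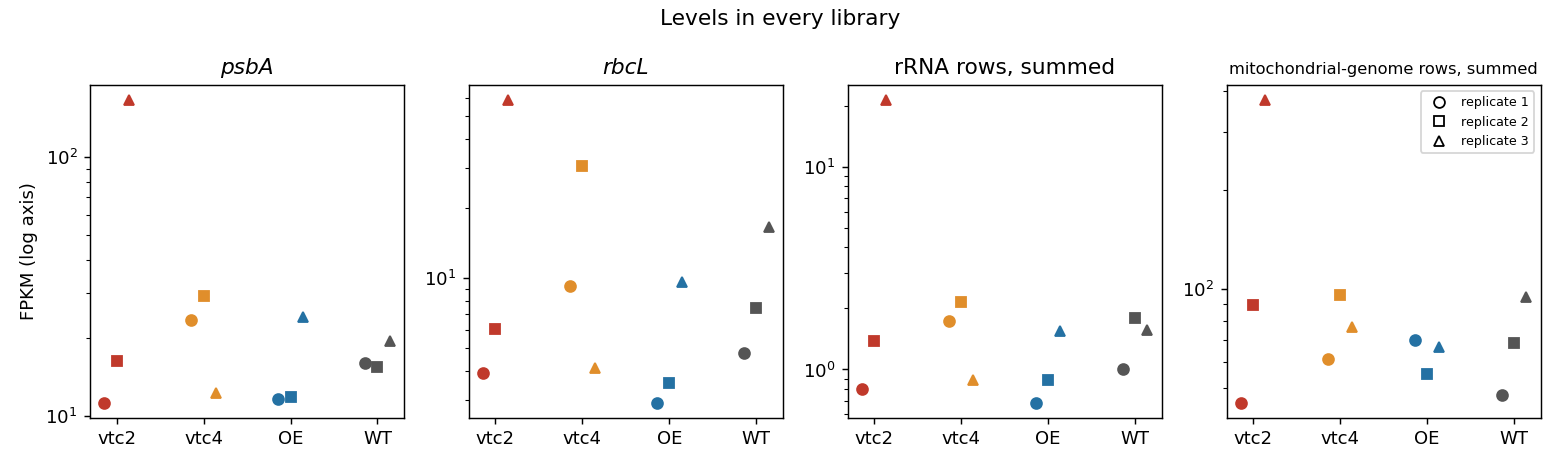
FPKM on log axes (y) in every library of vtc2, vtc4, OE and WT (x), for psbA, rbcL, the sum of the rRNA rows and the sum of the mitochondrial-genome rows, with shapes for replicates. In all 4 panels vtc2 replicate 3 is the highest of the 12 libraries, at 167, 58.6, 21.3 and 374 FPKM.

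One library set most of the spread in these genes. In vtc2 replicate 3, 12 of the 14 tested genes of the photosystems, the cytochrome b6f complex and rubisco were above the other 11 libraries, and all 6 photosystem II genes were among them. Over the 37 named and tested genes it was the highest library for 14, a share of 37.8%, against 13.3% over all 17290 tested genes. The excess was uneven: relative to the mean of vtc2 replicates 1 and 2, psbA was 12.1 times as high, rbcL 11.7 times, psbC 4.88 times and psbB 2.06 times, whereas atpB was 1.21 times, clpP 0.957 times and rpoB 0.985 times as high. The difference ran with base composition over the 37 genes, with a Spearman correlation of -0.55 with percent A and 0.58 with percent GC, given as descriptions. Base composition also differed by role. Percent A ran from 22.0 (psbD) to 31.5 (petA) in the 14 genes of the photosystems, the cytochrome b6f complex and rubisco. It was 34.3 for rpl16 and 38.7 for rpl22. Role and base composition were not separated.

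Further readings moved with this library. The 4 rows matched to the 16S and 23S rRNA genes, which lie in the inverted repeat in 2 near-identical copies and may share reads, summed to 0.798, 1.38 and 21.3 FPKM in vtc2, against 0.687 to 2.14 FPKM in the 9 libraries of vtc4, OE and WT. The weakest of these length matches, the first 23S copy, gave whole fragments in 66.7% of its values. The 151 mitochondrial-genome rows summed to 45.2, 89.3 and 374 FPKM in vtc2, 61.4, 96.1 and 76.7 FPKM in vtc4, 70.1, 55.3 and 66.4 FPKM in OE, and 47.8, 68.3 and 94.4 FPKM in WT. The part of these readings in the chloroplast values was not tested.

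**Figure D3:**
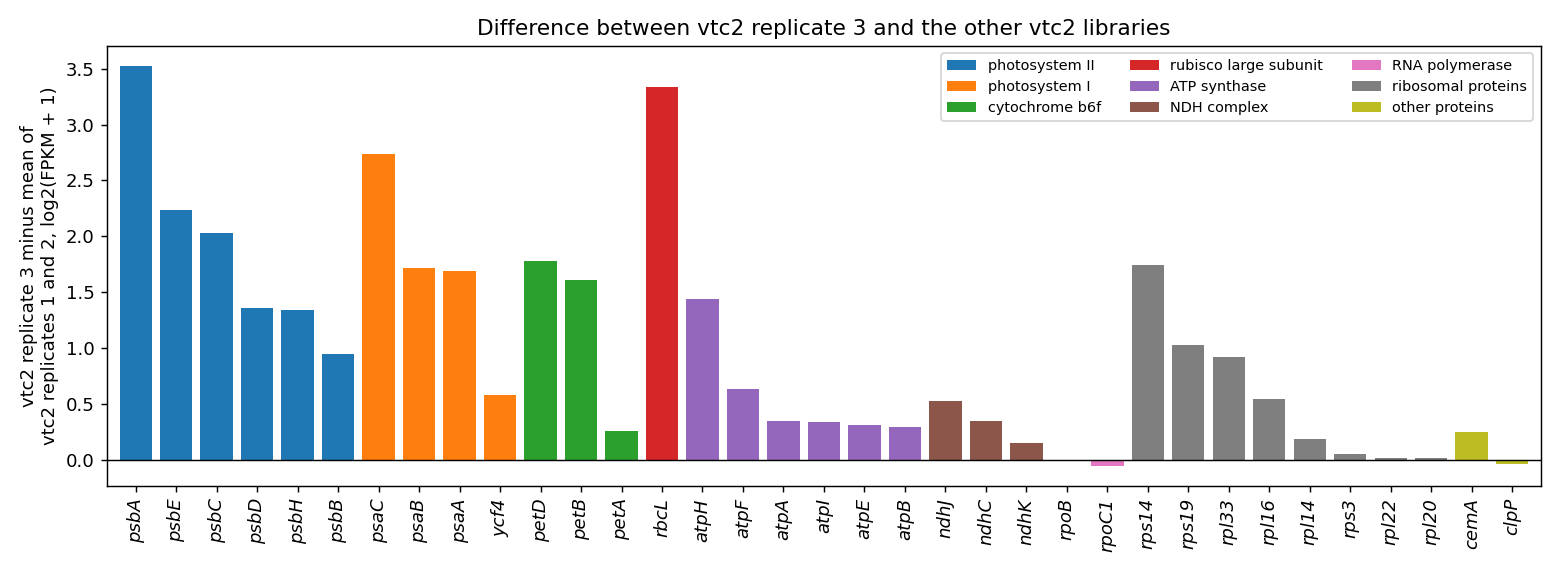
Difference in log2(FPKM + 1) between vtc2 replicate 3 and the mean of vtc2 replicates 1 and 2 (y axis) for 35 named and tested genes (x axis), coloured by role. psbA (3.53) and rbcL (3.34) have the tallest bars, and the RNA polymerase genes lie near 0.

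The comparison of vtc2 with WT asks how loss of VTC2 goes with the chloroplast transcripts. The ATP synthase genes atpE and atpB fell in vtc2, and no chloroplast-genome gene rose. atpE was at 25.5, 20.8 and 28.8 FPKM in vtc2, against 43.7, 39.4 and 58.1 FPKM in WT, and atpB was at 25.2, 17.0 and 25.6 FPKM in vtc2, against 39.6, 33.1 and 39.0 FPKM in WT. Both were lower in 3 of 3 vtc2 libraries than in any WT library, vtc2 replicate 3 included. All vtc2 libraries were below all WT libraries for 5 of the 42 tested rows and for 12.6% of all tested genes. The log2 fold change was -0.88 (SE 0.14) for atpE with an adjusted p of 0.0112, and -0.71 (SE 0.13) for atpB with an adjusted p of 0.0160, by limma with Benjamini-Hochberg adjustment over 17290 genes. The values rest on 118 to 333 fragments per library for atpE and 541 to 1254 for atpB. These neighbours are on the same strand and overlap by 4 bases in RefSeq, and they are commonly transcribed together, so they are not independent readings. In bulk tissue and an mRNA preparation, less RNA per cell, fewer cells that hold it and a smaller share kept by the preparation cannot be told apart.

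The 2 called genes are 2 of 42 tested, all lower, against 3.02% of all tested genes called in either direction and 2.23% called lower. The median log2 fold change of the 42 rows was -0.083, against 0.0018 over all tested genes, and 26 of the 42 were below 0, against 49.6% of all genes. The other 4 tested ATP synthase genes did not pass. atpA, the alpha subunit, was at 8.26, 5.54 and 8.88 FPKM in vtc2, against 10.5, 7.88 and 11.7 FPKM in WT, with a log2 fold change of -0.37 and an adjusted p of 0.251 (limma). The 10 tested ribosomal protein genes had a median log2 fold change of -0.42, with 8 of 10 below 0 and none called, and the 6 photosystem II genes had a median of 0.27 with 1 of 6 below 0. Single libraries weighed on both classes. The median log2 shift of the ribosomal protein genes from the WT mean was -0.046, -0.80 and 0.11 in vtc2 replicates 1, 2 and 3. For the 14 tested genes of the photosystems, the cytochrome b6f complex and rubisco it was -0.40, -0.22 and 1.45. The largest falls by size were the unnamed rows ATCG00065 with -3.81 and ATCG00090 with -3.03, at adjusted p of 0.255 and 0.597 (limma).

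Limits bear on these calls. When only the vtc2 and WT libraries entered the fit, the adjusted p was 0.0756 for atpE and 0.0897 for atpB (limma), so neither was called. Without WT replicate 1 or WT replicate 3 the adjusted p of atpB was 0.0530 or 0.0672 (limma), whereas without vtc2 replicate 3 both genes were called and the median of the 42 rows was -0.36.

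**Figure D4:**
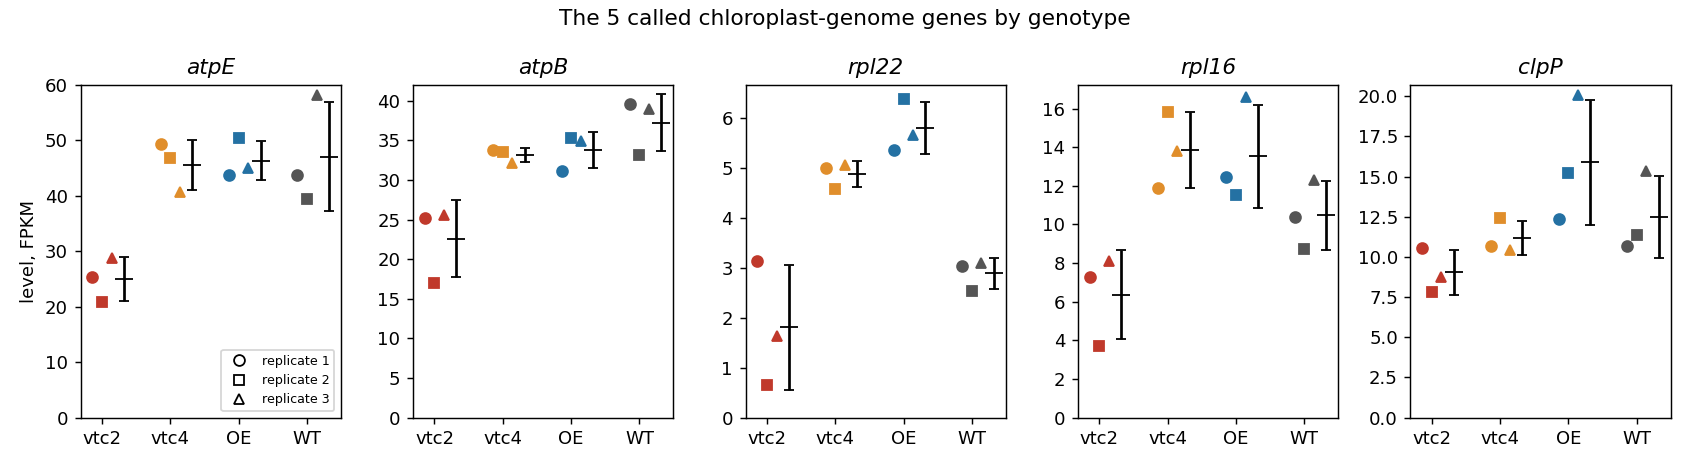
FPKM (y axis, from 0) of the 5 genes called in at least 1 comparison, in the 3 libraries of vtc2, vtc4, OE and WT (x axis); bars beside the points give the mean and SD. The 3 vtc2 libraries of atpE lie between 20.8 and 28.8 FPKM, below the other 9, which start at 39.4 FPKM.

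In vtc4 against WT, 0 of the 42 rows were called by limma, against 0.0347% of all tested genes. At an unadjusted p below 0.05 there were 4, all higher, against 4.86% of all genes in either direction and 2.81% higher. Among them were rpl14 and rpl22, which encode ribosomal proteins L14 and L22, and ATCG00630. rpl14, chosen here after its values were seen, was at 11.4, 7.24 and 8.00 FPKM in vtc4, against 5.57, 5.86 and 6.99 FPKM in WT, with a log2 fold change of 0.45 (SE 0.15) and a limma adjusted p of 0.881. ATCG00630 was at 11.5, 20.3 and 6.19 FPKM in vtc4 and at 0, 5.88 and 0 FPKM in WT, with 2.71 and an adjusted p of 0.968. The largest falls were in ATCG00090 with -5.78, listed at 0 in all 3 vtc4 libraries, and ATCG00065 with -1.64, each at a limma adjusted p of 0.9997. The median over the 42 rows was 0.031, against -0.0093 over all genes. psbA had 0.25 and rbcL 0.31, and atpE and atpB overlapped WT, at 49.3, 46.9 and 40.6 FPKM for atpE and 33.8, 33.5 and 32.1 FPKM for atpB in vtc4.

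In OE against WT, 0 of 42 rows were called by limma, against 0.0174% of all genes, and 2 had an unadjusted p below 0.05, both higher, against 6.04% of all genes in either direction and 3.00% higher. These were rpl22 and rpl20, both for proteins of the large ribosomal subunit. rpl22 was at 5.36, 6.38 and 5.67 FPKM in OE, against 3.04, 2.54 and 3.10 FPKM in WT, with no overlap, a log2 fold change of 0.81 (SE 0.24) and an adjusted p of 0.614. All OE libraries were above all WT libraries for 3 of the 42 rows and for 5.42% of all tested genes. The other large rise was ATCG00630 with 1.54 and the largest falls were ATCG00065 with -1.87 and rbcL with -0.73, all overlapping between the groups. The median over the 42 rows was -0.048, against -0.0090 over all genes.

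OE against vtc2 compares the line with the background it carries. Of the 42 rows, 5 rose and none fell: atpE, atpB, rpl22, rpl16 and clpP, against 5.14% of all genes called in either direction and 2.94% called higher. atpE was at 43.7, 50.4 and 45.0 FPKM in OE, against 25.5, 20.8 and 28.8 FPKM in vtc2 (log2 fold change 0.87, SE 0.14, adjusted p 0.0090). atpB was at 31.1, 35.3 and 34.9 FPKM in OE, against 25.2, 17.0 and 25.6 FPKM in vtc2, with 0.58 (SE 0.13) and an adjusted p of 0.0266. For both ATP synthase genes the OE libraries did not overlap those of vtc2. All OE libraries were above all vtc2 libraries for 9 of the 42 rows and for 14.3% of all tested genes. atpE was called under all 24 alternatives, but atpB lost its call under 5. These were the fit of only OE and vtc2 (limma adjusted p 0.102), and leaving out vtc2 replicate 2 (0.0545) or any 1 OE replicate (0.0508 to 0.0772).

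The ribosomal protein genes called were rpl22 and rpl16, for proteins L22 and L16 of the large subunit. rpl22 was at 5.36, 6.38 and 5.67 FPKM in OE, against 3.14, 0.651 and 1.64 FPKM in vtc2, which are 42, 51 and 46 fragments in OE and 26, 5 and 13 in vtc2. Its log2 fold change was 1.37 (SE 0.24, adjusted p 0.0119, limma). rpl16 was at 12.4, 11.5 and 16.6 FPKM in OE, against 7.27, 3.73 and 8.09 FPKM in vtc2, with 1.02 (SE 0.22) and an adjusted p of 0.0247. The call was lost under 4 of 24 alternatives for rpl16 and under 1 of 23 for rpl22. Both were higher in 3 of 3 OE libraries than in any vtc2 library, as were 14.3% of all tested genes. clpP, which encodes the plastid-encoded subunit of the Clp protease, was at 12.4, 15.2 and 20.1 FPKM in OE, against 10.6, 7.80 and 8.78 FPKM in vtc2, with 0.73 (SE 0.17) and an adjusted p of 0.0303. Its call was lost with no filter on low values (limma adjusted p 0.0568), with only OE and vtc2 in the fit (0.0910), and without vtc2 replicate 2 (0.113), vtc2 replicate 3 (0.0897) or OE replicate 3 (0.0880).

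The median of the 42 rows for OE against vtc2 was 0.33, against -0.0022 over all genes. The 6 photosystem II genes were all below 0, with a median of -0.56, and psbA had -1.04. Without vtc2 replicate 3, psbA had 0.13. For the ribosomal protein genes, the median log2 shift from the WT mean was -0.046, -0.80 and 0.11 in vtc2 replicates 1, 2 and 3. In OE replicates 1, 2 and 3 it was 0.34, 0.31 and 0.26. The 10 ribosomal protein genes had a median log2 fold change of 0.62 for OE against vtc2, with 1 of 10 below 0. That one was rps14, which lies next to psaB, at 2.85, 1.67 and 2.25 FPKM in OE and 2.77, 5.29 and 15.3 FPKM in vtc2, with -1.18 and an adjusted p of 0.133 (limma); without vtc2 replicate 1 the adjusted p was 0.0312. ATCG00090 with 2.93 and ATCG00065 with 1.94 had the largest rises, and neither passed. With only the libraries of OE and vtc2 in the fit, 1 gene was called, and the count was 4 without vtc2 replicate 3, 2 without vtc2 replicate 2, 8 without vtc2 replicate 1, 3 without OE replicate 1, 4 without OE replicate 2 (where the adjusted p of atpB was 0.0508, limma) and 2 without OE replicate 3. This comparison shares the vtc2 libraries with vtc2 against WT, so the low vtc2 values of atpE and atpB enter both.

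In vtc2 against vtc4, 3 of 42 rows fell and none rose: atpE, rpl22 and rpl16, against 1.36% of all genes called in either direction and 0.902% called lower. atpE averaged 25.0 ± 4.03 FPKM in vtc2 and 45.6 ± 4.48 in vtc4 (SD, n = 3 each), with a log2 fold change of -0.85 and an adjusted p of 0.0225 from limma. rpl22 was at 3.14, 0.651 and 1.64 FPKM in vtc2, against 4.99, 4.58 and 5.06 FPKM in vtc4, with -1.16 and an adjusted p of 0.0395. rpl16 was at 7.27, 3.73 and 8.09 FPKM in vtc2, against 11.9, 15.8 and 13.8 FPKM in vtc4, with -1.06 and an adjusted p of 0.0403. For rpl22 and rpl16 every vtc2 library was below every vtc4 library, which held for 7 of the 42 rows and for 13.7% of all tested genes. atpB had -0.56 and an adjusted p of 0.0567 (limma). The row ATCG00630 had -2.70 and ATCG00065 -2.17 without passing, and ATCG00090 and psbA had the largest positive values, 2.75 and 0.62. The calls depended on single libraries: 0 rows were called without any one of the vtc2 replicates 2 or 3 or of the 3 vtc4 replicates, or with only these 2 genotypes in the fit, whereas 6 were called without vtc2 replicate 1. Leaving out OE replicate 1 or WT replicate 1, which enter only through the shared spread, left 1.

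The rpl22 and rpl16 genes belong to a row of neighbours on one strand in RefSeq, rpl22, rps3, rpl16 and rpl14 among them, in which rps3 and rpl22 overlap by 16 bases. These 4 were all at their lowest of the 12 libraries in vtc2 replicate 2, with 0.651 FPKM for rpl22, 0.338 for rps3, 3.73 for rpl16 and 4.23 FPKM for rpl14. In WT, replicate 3 was the highest of its group for all 4. vtc2 replicate 2 was also the lowest library for 16 of the 37 named and tested genes, against 11.1% of all tested genes, and for 4 of the 6 ATP synthase genes. For OE against vtc2 the log2 fold changes of the 4 were 1.37 for rpl22, 1.02 for rpl16, 0.74 for rps3 and 0.50 for rpl14, of which the first pair passed.

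**Figure D5:**
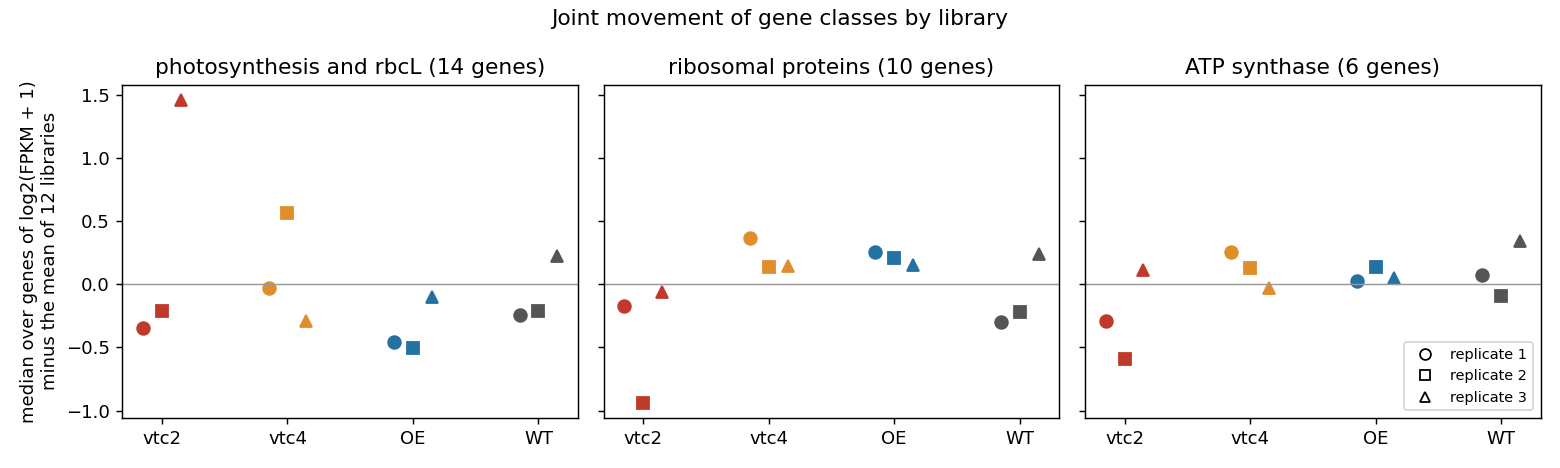
Median over the genes of a class of log2(FPKM + 1) minus the mean of the 12 libraries (y axis), per library and genotype (x axis), for 14 photosynthesis genes with rbcL, 10 ribosomal protein genes and 6 ATP synthase genes. vtc2 replicate 3 is at 1.46 in the first panel, and vtc2 replicate 2 is at -0.94 in the second.

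Within genotypes, the 14 photosynthesis genes moved together from library to library. The library that was highest in its genotype was the same for most of them: vtc2 replicate 3 for 14 of 14, vtc4 replicate 2 for 13, OE replicate 3 for 11 and WT replicate 3 for 10. Of the 10 ribosomal protein genes, the same libraries were the highest of their genotype for 5 (vtc2 replicate 3), 4 (vtc4 replicate 2), 2 (OE replicate 3) and 10 (WT replicate 3). Of the 6 ATP synthase genes they were the highest for 6, 2, 2 and 5, in the same order. A shared highest library in vtc2 and WT was thus not confined to the photosynthesis genes. The libraries were picked as the highest for those genes, and the share over all tested genes was not counted. The difference between the classes was not tested. As library medians, the photosynthesis class lay at -0.35, -0.21 and 1.46 in vtc2, -0.027, 0.57 and -0.29 in vtc4, -0.46, -0.50 and -0.10 in OE, and -0.24, -0.21 and 0.23 in WT on the log2 scale.

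The NDH complex and RNA polymerase genes gave no call in any comparison. In the NDH complex, a relative of mitochondrial complex I, ndhK was highest with 3.90, 1.95 and 3.22 FPKM in vtc2, 3.89, 2.62 and 3.32 FPKM in vtc4, 2.56, 2.27 and 2.37 FPKM in OE, and 3.53, 3.01 and 3.06 FPKM in WT. Of 10 named NDH genes, 3 were tested, and the other 7 averaged 0.033 to 0.278 FPKM. The RNA polymerase subunit gene rpoB was at 4.24, 2.89 and 3.52 FPKM in vtc2, 4.51, 3.21 and 4.42 FPKM in vtc4, 3.96, 5.01 and 4.49 FPKM in OE, and 4.13, 3.26 and 3.47 FPKM in WT. The genotypes overlapped in rpoB, while ndhK in all 3 OE libraries was below every WT library without passing. All OE libraries were below all WT libraries for 4 of the 42 tested rows and for 5.49% of all tested genes. The highest rRNA row, the second copy of rrn23S, averaged 0.891 FPKM. No tRNA row was named, since all tRNA genes are too short for the length match. Of the rows above 0 without a name, 14 were not tested.

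The sequences before the genes were searched for the bacterial-type promoter hexamers TTGACA and TATAAT, in that order with 15 to 21 bases between them, in the 250 bases before 86 protein-coding and rRNA genes. No window held both hexamers exactly on either strand. With 1 mismatch allowed, an allowance added after the exact search, 2 of 86 windows (2.33%) had a match on the gene's strand, those of psbA and ndhF, against 0 on the opposite strand. With up to 2 mismatches, 20 windows (23.3%) had a match on the gene's strand and 14 (16.3%) on the opposite strand. The windows are not all distinct. Genes of the inverted repeat, such as ycf1, ndhB and rps7, were searched in both copies, and the match before atpE lies within atpB. The best matches on the gene's strand are shown for psbA, the highest named gene in vtc2 replicate 3, and for the 5 called genes. They have 1 mismatch for psbA, 3 for atpE, atpB and rpl22, 2 for rpl16 and 4 for clpP; capitals mark the hexamers. They are from the minus strand of the RefSeq chloroplast sequence (TAIR10.1), a later release than the TAIR10 build of the submitters' notes, and lie at 1530 to 1559 for psbA, 52810 to 52836 for atpE, 54311 to 54337 for atpB, 82657 to 82683 for rpl16, 84096 to 84125 for rpl22 and 72091 to 72119 for clpP. They begin 115 bases before the gene's start for psbA, 173 for atpE, 181 for atpB, 31 for rpl16, 176 for rpl22 and 237 for clpP.
psbA: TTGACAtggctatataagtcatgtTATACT
atpE: TTTACAggttctccgggaaaaTATGTT
atpB: TTGAAAatgactattccttcaTTGAAT
rpl16: TTTCCAtcaaaactcctttgaTATAAT
rpl22: TGGAAGggaacacttacccgtttaTATAAT
clpP: TTGATCattcagaagcccgttcgTAAAAA
A match is a description of letters and not evidence of a promoter.

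Nuclear genes that serve chloroplast transcription and RNA turnover were counted beside the chloroplast genes. Of 19 tested transcription genes (polymerases, sigma factors and polymerase-associated proteins), 1 fell in vtc2 against WT, beside 2.23% of all tested genes, and 17 of the 19 had a log2 fold change below 0, beside 49.6% of all genes, with a median of -0.17. The gene that fell was PAP12, at 83.3 ± 1.71 FPKM in vtc2 and 102 ± 4.82 FPKM in WT. Of 5 genes of RNA turnover, CSP41A and CSP41B, which encode RNA-binding proteins of the chloroplast, fell, at 306 ± 13.4 FPKM in vtc2 and 414 ± 42.8 FPKM in WT for CSP41A and 460 ± 15.4 FPKM in vtc2 and 628 ± 59.8 FPKM in WT for CSP41B (SD, n = 3 each). Their log2 fold changes were -0.43 and -0.45, at limma adjusted p of 0.0141 and 0.0094. In OE against vtc2, 4 of the 19 transcription genes rose, PAP3, PAP5, PAP6 and PAP12, and 2 of the 5 RNA turnover genes, CSP41A and CSP41B, beside 2.94% of all tested genes. In vtc2 against vtc4 both CSP41 genes fell, beside 0.902% of all tested genes, and no transcription gene was called, and against WT none of these was called in vtc4 or OE. The sigma factors SIG5, SIG1, SIG6 and SIG2 averaged 222, 100.1, 50.6 and 45.6 FPKM over the 12 libraries.

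For rubisco, the small subunit is encoded in the nucleus and joins the rbcL product. RBCS1B, RBCS2B and RBCS3B averaged 2816, 3776 and 4570 FPKM over the 12 libraries, while RBCS1A was listed at 0 throughout. None of the 3 tested was called in vtc2, vtc4 or OE against WT. RBCS1B rose in OE against vtc2, at 3008 ± 134 FPKM in OE and 2398 ± 121 FPKM in vtc2 (SD, n = 3 each), with a log2 fold change of 0.33 and an adjusted p of 0.0454 from limma. Of the markers, MYB60 (1 of 3 for guard cells called) was lower and PYK10 (root) higher in vtc2 than in WT (log2 fold changes -0.41 and 0.95, limma adjusted p 0.0453 and 0.0095), whereas the other 3 root markers averaged at most 0.106 FPKM; the part of these markers in the chloroplast results was not tested.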

How the data were processed

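RNA was measured in 12 rosette libraries. Reads were trimmed, aligned and quantified on TAIR10 with programs that the submitters' processing notes list as Cuffdiff, Cufflinks (version 2.2.1), HISAT2 (2.1.0) and Trimmomatic (0.36), and the authors deposited 1 table of FPKM; strand setting and normalization option are not given in the sources used here. Fragment numbers were recovered as FPKM times effective length over the worth of 1 fragment, with scaling totals of 23.4 to 26.0 (in units of 1e6 fragments) per library; 98.4% to 98.9% of nuclear genes under 20 fragments lay within 0.1 of whole. Names needed a length of at least 200 bases, 3 libraries above 0 and 60% of values whole, limits set after the values were seen. Of 6 RefSeq notes that pair an ATCG ID with a product, 5 give the name used and 1 (ATCG00430) gives an older name of ndhK.

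Limma 3.58.1 in R 4.3.3 was run on log2(FPKM + 1), a scale that understates changes of weakly expressed genes, over 17290 genes with FPKM of at least 1 in at least 3 libraries. It used genotype as the only factor, all libraries, a mean-variance trend, two-sided tests and a Benjamini-Hochberg threshold of 0.05. On simulated data for vtc2 against WT (17290 genes, 200 of them changed, drawn from genes with a mean log2 value above 2), the step called 81% of the genes changed by 0.5 and 98% of those changed by 1 on the log2 scale, with 19 calls among unchanged genes. The share of false calls was thus above the threshold of 0.05. The simulated noise was normal, so these values do not describe weaker genes or genes with 1 outlying library, such as psbA. Libraries were independent pools of plants. Named were psbA and rbcL, the highest gene of each role class, called genes, and the 2 largest rises and falls per comparison. Members, lists and roles were chosen with earlier results of these data known. The 5 comparisons share libraries. The values of 2 tested genes are not reported here, although counts and medians include them. The alternatives are in the closing section.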

Additional observations from a re-analysis of the deposited data

How the results depend on the processing

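Alternatives changed the pseudocount, filter, scaling, spread model, replicate block or libraries. In vtc4 and OE against WT, limma called 0 genes in all 24, beside 4 and 2 at an unadjusted p below 0.05 with the settings reported. With only the 2 groups compared in the fit, 0 genes were called for vtc2 against WT, 1 for OE against vtc2 and 0 for vtc2 against vtc4. For vtc2 against vtc4, 1 was called with no filter on low values and 1 without the variance trend; rpl22 also lost its call with a pseudocount of 0.1 (limma adjusted p 0.0539) and rpl16 with robust moderation (0.0590). Leaving out 1 library gave 1 to 3 calls for vtc2 against WT, 2 to 8 for OE against vtc2 and 0 to 6 for vtc2 against vtc4. The median log2 fold change of the members then ran from -0.36 to 0.062 for vtc2 against WT and from -0.48 to -0.0047 for vtc2 against vtc4. Without the filter it was 0 for OE against vtc2, where many rows at or near 0 entered. The summed FPKM of vtc4 over WT was 1.09 for protein-coding rows, 1.10 as a share without tRNA and rRNA rows, and 0.470 to 0.746 with 1 library left out. These row classes were taken from common knowledge of the loci. The cause of these shifts was not tested.

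Of 36 named gene comparisons with 859 alternative values, 10 values reversed, all with 1 library left out and none of a called gene. Where 1 library left out reversed a value, the other end of the range was 1.59 for psbA and 1.11 for rbcL (vtc2 against WT), -2.90 for ATCG00065 and 0.91 for rbcL (vtc4 against WT), -0.49 for psbA (OE against WT), -1.75 for psbA (OE against vtc2), and 1.33 for psbA and 0.82 for rbcL (vtc2 against vtc4). Without vtc2 replicate 3, psbA was at -0.30 and rbcL at -0.69 for vtc2 against WT, psbA at 0.13 for OE against vtc2, and psbA at -0.55 and rbcL at -1.0 for vtc2 against vtc4. ATCG00065 was at 0.21 for vtc4 against WT without vtc4 replicate 1. rbcL was at -0.39 for vtc4 against WT without vtc4 replicate 2, at -0.049 without WT replicate 1, and at -0.49 for vtc2 against vtc4 without vtc4 replicate 3. psbA was at 0.0051 for OE against WT without OE replicate 1.

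The labels do not say that equal replicate numbers share a batch. Deviations of same-numbered libraries correlated at -0.17 to 0.20, and in no comparison did all 6 libraries correlate best with their own number. With the replicate block, 2 genes were called for vtc2 against WT, 0 for vtc4 and 0 for OE against it, 5 for OE against vtc2 and 4 for vtc2 against vtc4. Depth limits the weakest genes: rpl22 rested on 5 fragments in vtc2 replicate 2.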
